A study of Mus musculus with 49 samples.

Results

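The comparison sets imiquimod-treated skin against skin given water, in DITRA-like mice that were all injected with phosphate-buffered saline (PBS). It holds the 9 skin libraries labelled PBS with imiquimod (IMQ, n = 6) or PBS with water (n = 3), out of 49 libraries in the series. Of 24475 genes in the skin table, 15345 had enough counts to be tested. DITRA is deficiency of the interleukin-36 (IL-36) receptor antagonist, and the labels call every animal a DITRA model on a strain that is 75% C57BL/6NTac and 25% 129S6/SvEvTac. Both groups share this background and the PBS injection, and the labels give IMQ or water as the difference. No group is labelled as vehicle alone, so the effects of imiquimod, any carrier and the application cannot be told apart. By the sample numbers in the titles, IMQ replicates 1 to 3 run with the water libraries and IMQ replicates 4 to 6 with libraries given the antibody to the IL-36 receptor. Whether these runs of numbers are batches is not stated. The labels give no age, sex, dose, duration or skin site, and they do not describe the alleles of the model. The remaining 14 skin libraries came from IMQ-treated mice given an antibody to the human IL-36 receptor or to mouse IL-12p40 and served here to estimate the spread, and 26 libraries came from colon. Nothing in the labels says that each library is a separate animal, so p-values measure the spread between these samples.

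Imiquimod is a small molecule that activates Toll-like receptor 7, a sensor of single-stranded RNA in endosomes. On mouse skin it brings a psoriasis-like reaction, in which keratinocytes and leukocytes exchange interleukin-1 (IL-1), IL-36, IL-23 and IL-17 signals, neutrophils enter the skin and the epidermis thickens. IL-36 cytokines act through the receptor chains encoded by Il1rl2 and Il1rap, and the antagonist encoded by Il1f5 holds them in check.

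Library totals lay between 14819938 and 19087218 expected counts. Levels are given as counts-per-million (CPM) of the adjusted library total. Changes are log2 fold changes of IMQ minus water with their standard error (SE) after the ± sign, and the words rose, fell and changed are kept for an adjusted p under 0.05 by edgeR's quasi-likelihood test. Where CPM of the 6 IMQ libraries are given as a range, the median follows. The first principal component of the 9 libraries held 49.9% of their variance and separated the groups, with water libraries between -73.24 and -50.32 and IMQ libraries between 21.35 and 39.4. The second held 18.6% and set IMQ replicate 1 (58.22) apart from the other IMQ libraries (-27.6 to -7.23). That library was lowest of the 6 in the summed CPM of fibroblast, adipocyte and skeletal muscle markers, and highest in summed suprabasal keratinocyte markers. Water replicate 3 had the lowest first component of all. The defining markers of the labelled tissue were present in every library, with summed basal keratinocyte markers at 11636 to 17469 CPM under water and 22618 to 32462 CPM under IMQ.

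IMQ changed 5061 genes, which is 33.0% of those tested, with 2381 (15.5%) higher and 2680 (17.5%) lower. With a log2 fold change of at least 1 as well, 559 genes (3.64%) were higher and 995 (6.48%) lower. An unadjusted p under 0.05 was reached by 6857 genes (44.7%). For 4091 genes (26.7%) no IMQ library overlapped a water library, 2019 (13.2%) with all IMQ libraries above and 2072 (13.5%) with all below. The median over all genes tested was -0.03, against which the medians of gene lists below can be read. Counts of rises and falls in a list can likewise be read against the 15.5% and 17.5% over all genes tested. The lists were chosen with earlier results of these data known, so such a reading describes the lists and tests nothing. Scaling by library totals alone lowered that median by 0.11 and split the 5016 calls into 1582 higher and 3434 lower. Leaving out water replicate 3 left 2902 genes changed, and leaving out any other library left between 3753 and 5010. With IMQ replicates 1 to 3 alone, 2042 genes were higher and 1781 lower, and with IMQ replicates 4 to 6 alone, 1619 were higher and 1814 lower. Of the genes named here and called, the first setting lost the calls of Cd207, Cd22, Cenpf, Cldn1, Defb6, Duox2, Hrnr, Il1f10, Il20ra, Il20rb, Il22, Krt10, Mmp13, Pdpn, Rrm2 and Slfn1. The second lost those of Casp1, Cd274, Cdh5, Cenpf, Col3a1, Duox2, Foxn1, H2-Aa, Il22, Il23a, Lef1, Mcm2 and Tmprss11g. CPM are shares of a library, so a gene's CPM also falls when RNA of other cells takes a larger share. In bulk skin, fewer cells of a type, less RNA per cell and such a larger share cannot be told apart.

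**Figure D1:**
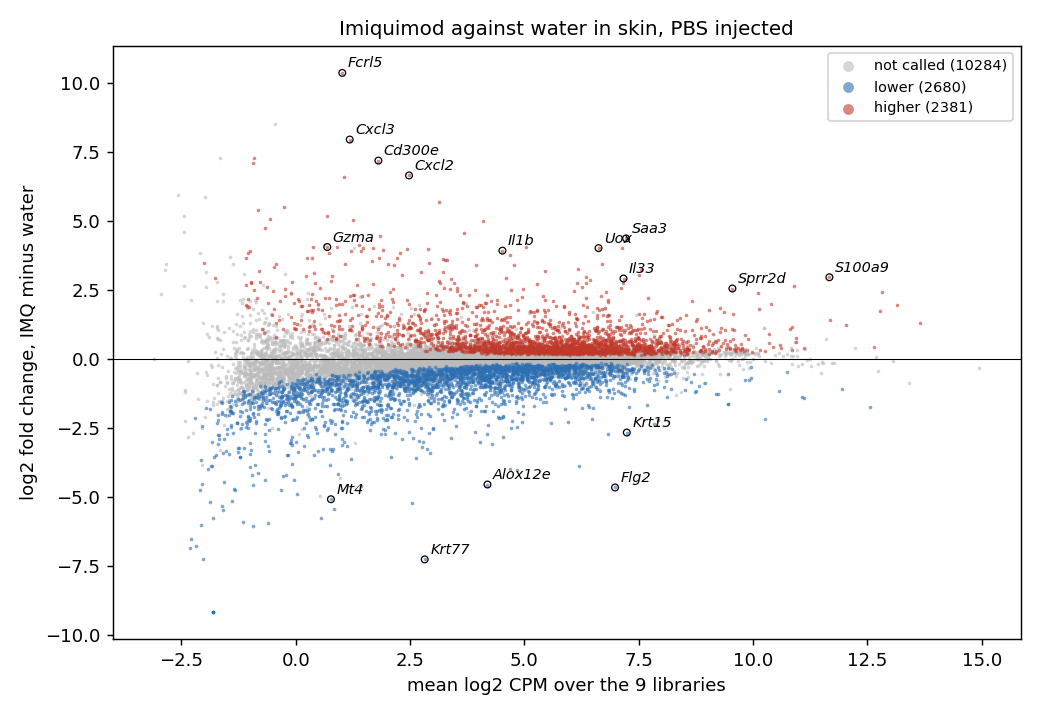
Log2 fold change (IMQ minus water, vertical axis) against mean log2 CPM over the 9 libraries (horizontal axis) for the 15345 genes tested. Red points are the 2381 genes called higher, blue points the 2680 called lower and grey points the rest, with 16 genes of the text labelled.

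The smallest p-values belonged to 3 genes with an adjusted p of 8.55e-06. Ccl27a, a chemokine that keratinocytes release to draw skin-homing T cells (gene ID 20301, GRCm38.p6 chromosome 4, 41769467 to 41774225), stood at 19.1, 29.4 and 29.2 CPM in the water libraries and at 3.15 to 5.87 CPM under IMQ (median 4.34), a fall of 2.54 on the log2 scale (SE 0.25). Lpin2, a phosphatidate phosphatase, rose from 41.6, 32.5 and 29.5 CPM to between 114 and 164 CPM (median 123, log2 change 1.90 ± 0.19). Car6, a secreted carbonic anhydrase, fell from 2.02, 8.93 and 6.93 CPM to between 0.117 and 0.420 CPM (median 0.191, log2 change -4.74 ± 0.48). No IMQ library overlapped a water library for any of the 3. Next among the rises by p were Sirpb1a, an activating receptor of myeloid cells (3.49 ± 0.37), the protease-activating cathepsin Ctsc (1.23 ± 0.15), the adhesion gene Cadm4 (1.61 ± 0.20) and Igf2bp2, an RNA-binding protein (2.05 ± 0.26). Next among the falls were the phosphatase Ptpn14 (-1.30 ± 0.14), the guidance receptor Neo1 (-0.77 ± 0.08) and Ctnnd2, a catenin (-2.10 ± 0.23). Among genes with a mean log2 CPM of at least 3, large rises also took in Uox, urate oxidase (4.03 ± 0.79, adjusted p = 0.00103), Upp1, uridine phosphorylase (3.16 ± 0.42, adjusted p = 7.37e-05), and Tmprss11g, a membrane serine protease (3.18 ± 0.93, adjusted p = 0.0133, not past the threshold without water replicate 3). Large falls took in Serpina3j, a serine protease inhibitor (-3.98 ± 0.74, adjusted p = 0.00071), the transcription factor Bach2 (-2.49 ± 0.42, adjusted p = 0.000389) and Serpinb7, an epidermal protease inhibitor (-2.38 ± 0.41, adjusted p = 0.000475). A single left-out library moved some values by over 1.5 times: Tmprss11g (3.86 without water replicate 1) and Serpina3j (-2.89 without water replicate 3).

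Of the 19 Toll-like receptor and adaptor genes, all tested, 7 rose and 1 fell (median 0.47). Tlr7, the receptor of imiquimod, stood at 6.70, 6.02 and 10.1 CPM under water and 4.95 to 17.8 CPM under IMQ (median 12.4) and did not pass (0.68 ± 0.30, adjusted p = 0.0847). Tlr13, a sensor of bacterial ribosomal RNA, rose from 4.14, 3.18 and 6.93 CPM to between 7.33 and 20.8 CPM (median 17.4, log2 change 1.78 ± 0.29, adjusted p = 0.00032). Tlr11, which binds profilin of protozoa, fell from 2.78, 1.98 and 6.99 CPM to between 0.156 and 0.560 CPM (median 0.334, log2 change -3.46 ± 0.44, adjusted p = 5.95e-05), with every IMQ library below every water library. Tlr2, a receptor of bacterial lipoproteins (0.87 ± 0.20, adjusted p = 0.00249), the lipopolysaccharide co-receptor Cd14 (2.09 ± 0.45, adjusted p = 0.00173) and the shared adaptor Myd88 (0.76 ± 0.12, adjusted p = 0.000333) rose. Of 32 type I interferon-stimulated genes, 2 rose and none fell, and the median was -0.25. The rises were Slfn4 (2.76 ± 0.58, adjusted p = 0.00152) and Slfn1 (1.21 ± 0.41, adjusted p = 0.0299, lost without IMQ replicate 4 or 5 or water replicate 1 or 2), both schlafens of immune cells. The antiviral genes Rsad2 (3.98, 2.45 and 3.32 CPM against 2.17 to 4.37 CPM, median 2.67, log2 change -0.12 ± 0.33, adjusted p = 0.796) and Ifit1 (4.36, 2.58 and 5.75 CPM against 2.16 to 3.85 CPM, median 2.68, log2 change -0.62 ± 0.31, adjusted p = 0.127) overlapped between groups and did not pass. Values that moved by over 1.5 times with 1 library left out were Tlr11 (-2.75 without water replicate 3) and Slfn1 (1.90 without water replicate 3). The counts became, with 1 library left out, 2 Toll-like receptor falls without IMQ replicate 5, 5 interferon-stimulated gene falls without water replicate 2 and 1 interferon-stimulated gene fall without IMQ replicate 3.

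Of 7 mouse genes of IL-36 ligands and receptor chains, 5 were tested and 1 changed. That was Il1f10, which encodes IL-38, at 0.654, 0.728 and 0.789 CPM under water and 0.0606 to 0.678 CPM under IMQ (median 0.305, log2 change -1.31 ± 0.47, adjusted p = 0.0356, lost without IMQ replicate 2, 3 or 6 or any 1 water library). Il1f6, the mouse gene of IL-36 alpha, had 0 counts in all 9 libraries, and Il1f8, that of IL-36 beta, had too few counts to test. Il1f9, that of IL-36 gamma, stood at 1.96, 2.58 and 3.32 CPM under water and 0.988 to 2.46 CPM under IMQ (median 1.82, log2 change -0.52 ± 0.30, adjusted p = 0.185). Counts were assigned to mouse genes only, and the alleles of these animals were not described, so these values say nothing of a human or altered copy. Il1rl2 (17.5, 20.1 and 19.9 CPM against 18.5 to 29.1 CPM, median 21.1, log2 change 0.18 ± 0.12, adjusted p = 0.251) and Il1f5 (439, 788 and 373 CPM against 291 to 923 CPM, median 424, log2 change -0.14 ± 0.26, adjusted p = 0.7) did not pass either. Counts of Il1f5, the antagonist gene, were present in all 9 libraries, so these values do not show the labelled deficiency, and a count per gene does not tell whether the transcript is altered. Single left-out libraries changed the counts to 1 IL-36 rise without water replicate 2.

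Of the 15 genes of the IL-1, IL-18 and IL-33 system, all tested, 6 rose and 3 fell (median 0.45). Il33, an alarmin stored in nuclei of barrier cells (gene ID 77125, GRCm38.p6 chromosome 19, 29925113 to 29960718), was at 34.6, 39.96 and 38.3 CPM in the water libraries and at 199 to 366 CPM under IMQ (median 286), with the groups far apart (2.93 ± 0.54, adjusted p = 0.000691). Il1b rose from 4.58, 2.18 and 5.24 CPM to between 34.4 and 128 CPM (median 54.3, log2 change 3.94 ± 0.78, adjusted p = 0.0011), with the highest value in IMQ replicate 5. Nlrp3, the sensor of the inflammasome that matures IL-1 beta, rose as well (1.82 ± 0.44, adjusted p = 0.00437). Il18, a keratinocyte cytokine of the same family, went the other way, from 48.7, 91.4 and 65.4 CPM to between 21.7 and 51.1 CPM (median 25.7, log2 change -1.22 ± 0.24, adjusted p = 0.00105), and its receptor chain Il18r1 fell (-0.84 ± 0.13, adjusted p = 0.000209) while the partner chain Il18rap rose (1.28 ± 0.29, adjusted p = 0.0029). Il1a (0.84 ± 0.37, adjusted p = 0.0833) and the antagonist Il1rn (0.45 ± 0.27, adjusted p = 0.207) did not pass. Of 17 inflammasome and gasdermin genes, 4 rose and 2 fell, where 15.5% of all genes tested rose and 17.5% fell. Besides Nlrp3, the rises were the DNA sensor Aim2 (1.14 ± 0.22, adjusted p = 0.000961) and the caspases Casp4 (1.16 ± 0.31, adjusted p = 0.00689) and Casp1 (0.45 ± 0.17, adjusted p = 0.0434, lost without IMQ replicate 1, 2, 3, 4 or 6 or water replicate 1 or 3). The falls were the pore-forming gasdermins Gsdma2 (-2.70 ± 0.54, adjusted p = 0.00121) and Gsdma3 (-1.80 ± 0.37, adjusted p = 0.0013), whose expected counts were fractional throughout, a sign that reads were divided between similar genes. Leaving out 1 library at a time moved Nlrp3 (2.54 without water replicate 3).

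Among 14 genes of the IL-17 group, all tested, 5 rose and 1 fell (median 0.14). Il17f, a cytokine of type 17 lymphocytes, rose from 0.490, 0.397 and 0.338 CPM to between 2.03 and 8.41 CPM (median 3.67, log2 change 3.45 ± 0.65, adjusted p = 0.000836). Il17c, its counterpart made by epithelial cells, rose from 0.599, 0.662 and 0.169 CPM to between 1.22 and 11 CPM (median 2.60, log2 change 3.0 ± 0.67, adjusted p = 0.00245). Neither gene overlapped between groups, and IMQ replicate 1 was highest for both. Il17a was at 0.545, 0.199 and 0.0563 CPM and 0.363 to 2.37 CPM (median 0.621), overlapped between groups and did not pass (1.66 ± 0.78, adjusted p = 0.101). Il22, which drives keratinocyte growth, rose (3.33 ± 1.19, adjusted p = 0.0365, lost without IMQ replicate 1 or 4 or any 1 water library). The receptor chain Il17ra did not pass (0.14 ± 0.12, adjusted p = 0.388). Of 10 genes tested for IL-12, IL-23 and interferon gamma, 2 rose and 3 fell (median -0.30). Il23a, the p19 subunit of IL-23, rose from 0.436, 0.529 and 0.169 CPM to between 0.731 and 5.97 CPM (median 1.94, log2 change 2.76 ± 0.81, adjusted p = 0.0128, not past the threshold without water replicate 3), and Ifngr1 rose (0.60 ± 0.15, adjusted p = 0.00401). Il12rb2, a chain of the IL-12 receptor, fell (-2.45 ± 0.55, adjusted p = 0.00258, likewise lost without water replicate 3). Values moved, with 1 library left out, by over 1.5 times for Il17c (2.37 without IMQ replicate 1). The counts with 1 library left out came to 3 IL-17 rises without IMQ replicate 1, water replicate 1 or water replicate 3, 1 IL-12 and IL-23 rise without water replicate 3 and 1 IL-12 and IL-23 fall without water replicate 3.

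The IL-20 subfamily acts on keratinocytes, and 2 of its ligands rose strongly. Il19 went from 2.83, 2.58 and 0.451 CPM to between 12.7 and 46.6 CPM (median 21.8, log2 change 3.65 ± 0.97, adjusted p = 0.00728) and Il24 from 0.490, 0.331 and 0.0563 CPM to between 1.58 and 10.02 CPM (median 4.71, log2 change 4.08 ± 1.08, adjusted p = 0.00732). All IMQ libraries lay above all water libraries for both. The receptor chains Il20rb (-0.71 ± 0.19, adjusted p = 0.00694, lost without water replicate 2) and Il20ra (-1.15 ± 0.37, adjusted p = 0.0208, lost without water replicate 2 or 3) fell, so that the 8 genes of the list gave 4 rises and 2 falls (median 0.58). In the IL-6 family, 5 of 13 genes tested rose and 1 fell (median 0.61). Osm, a leukocyte cytokine that acts on keratinocytes, rose from 0.654, 0.728 and 0.789 CPM to between 2.81 and 10.2 CPM (median 3.71, log2 change 2.71 ± 0.67, adjusted p = 0.00458), and its receptor Osmr rose from 60.9, 60.5 and 55.6 CPM to between 95.6 and 162 CPM (median 125, log2 change 1.07 ± 0.21, adjusted p = 0.001). Ebi3, a subunit of IL-27 and IL-35, rose too (1.57 ± 0.37, adjusted p = 0.00325). Il6 itself was at 0.654, 0.265 and 0.282 CPM and 1.10 to 3.29 CPM (median 1.52), did not overlap and did not pass (2.20 ± 0.94, adjusted p = 0.0744). Over 1.5 times apart from the value of all 9 libraries were Il24 (4.72 without water replicate 1). Without 1 library the counts were 3 IL-6 family rises without water replicate 1, 2 IL-6 family falls without IMQ replicate 4, water replicate 1 or water replicate 2 and 0 IL-6 family falls without water replicate 3.

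Neutrophil chemokines and growth factors were among the largest rises: 7 of 11 genes tested rose, none fell, and the median was 2.51. Cxcl2, which draws neutrophils through the receptor Cxcr2 (gene ID 20310, GRCm38.p6 chromosome 5, 90903899 to 90905938), had 0.872, 0.0662 and 0 CPM in the water libraries and 8.32 to 103 CPM under IMQ (median 24.4, log2 change 6.66 ± 1.61, adjusted p = 0.00397). Its relatives Cxcl3 (0.0545, 0.0662 and 0 CPM against 3.28 to 35.2 CPM, median 7.69, log2 change 7.96 ± 1.69, adjusted p = 0.0017) and Cxcl1 (0.599, 0.860 and 0.507 CPM against 1.77 to 12.1 CPM, median 8.02, log2 change 3.55 ± 0.99, adjusted p = 0.0101, lost without water replicate 3) rose as well. No library of 1 group reached those of the other for these 3 genes, and IMQ replicate 5 held the highest Cxcl2 and Cxcl3. Cxcl5 had 0 counts in all water libraries and 0.339 to 9.95 CPM under IMQ (median 1.52) and did not pass (adjusted p = 0.0584). Its IMQ mean of 2.76 CPM was 47.1-fold a floor of 3 counts over the water group. That mean was raised by IMQ replicate 5, the next highest IMQ library being at 1.92 CPM. Csf3, the growth factor of neutrophils, rose from 0.0545, 0.0662 and 0 CPM to between 0.426 and 3.22 CPM (median 1.27, log2 change 5.07 ± 1.36, adjusted p = 0.00784), and its receptor Csf3r rose (2.51 ± 0.52, adjusted p = 0.00143). Dependence on 1 library, by over 1.5 times, was seen for Cxcl2 (5.94 without IMQ replicate 5, 9.81 without water replicate 1 and 6.07 without water replicate 3) and Cxcl3 (7.24 without IMQ replicate 5). Under the 18 alternative analyses, Cxcl1 lost its call in 2, and Cxcl2 and Cxcl3 lost theirs in 1 each. Cxcl2 and Cxcl3 kept their calls whichever 1 library was left out.

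The promoters of Cxcl1, Cxcl2 and Cxcl3 are shown because they share a match to the NF-kB motif (GGGA, any base, TT, any base, CC), in capitals, within the 250 bases before the gene start (RefSeq, GRCm38.p6, 5′ to 3′ on the gene's strand). The windows are chr5:90890995-90891244, plus strand for Cxcl1, chr5:90903649-90903898, plus strand for Cxcl2 and chr5:90785851-90786100, plus strand for Cxcl3, and the matches end 62, 88 and 64 bases before the start.
Cxcl1: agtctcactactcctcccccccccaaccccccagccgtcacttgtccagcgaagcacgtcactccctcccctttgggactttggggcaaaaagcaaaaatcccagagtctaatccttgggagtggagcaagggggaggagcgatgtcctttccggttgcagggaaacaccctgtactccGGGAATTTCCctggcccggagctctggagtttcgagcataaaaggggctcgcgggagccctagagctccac
Cxcl2: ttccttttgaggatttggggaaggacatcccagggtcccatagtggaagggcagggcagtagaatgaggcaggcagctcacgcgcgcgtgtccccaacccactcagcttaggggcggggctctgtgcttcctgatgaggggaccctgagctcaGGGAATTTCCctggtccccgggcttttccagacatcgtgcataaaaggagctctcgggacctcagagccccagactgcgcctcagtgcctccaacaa
Cxcl3: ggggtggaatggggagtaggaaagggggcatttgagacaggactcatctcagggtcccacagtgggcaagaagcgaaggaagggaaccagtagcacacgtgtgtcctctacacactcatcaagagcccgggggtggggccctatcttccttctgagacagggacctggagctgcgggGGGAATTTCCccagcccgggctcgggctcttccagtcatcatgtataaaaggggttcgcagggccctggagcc
Matches on either strand were counted in all 27025 promoters of the table, of which 0.940% held this motif, and in the 12055 promoters of genes tested here, of which 1.03% did. The share was 2.17% (9 of 414, which include the windows shown) among genes that rose by at least 1 on the log2 scale. It was 1.19% (9 of 755) among those that fell by at least 1. Over all genes called, the share was 1.17% for rises and 1.19% for falls. A match describes the letters of the window and was not tested as a binding site.

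Chemokines of monocytes and T cells moved less together, with 4 of 21 tested rising and 2 falling (median -0.31), where 15.5% of all genes tested rose and 17.5% fell. Ccl3, which draws monocytes and neutrophils, rose from 0.981, 0.331 and 0.338 CPM to between 2.65 and 24 CPM (median 7.77, log2 change 4.03 ± 0.98, adjusted p = 0.00431). Ccl22, a dendritic cell chemokine for regulatory T cells, fell (-1.53 ± 0.34, adjusted p = 0.00246, lost without water replicate 3). Ccl20, the ligand of Ccr6 on type 17 cells, did not pass, with 5.12, 7.74 and 6.59 CPM against 2.38 to 14.9 CPM (median 5.87, log2 change 0.07 ± 0.47, adjusted p = 0.921). Cxcl10, an interferon gamma target, did not pass (-0.89 ± 0.43, adjusted p = 0.11). Of 9 homeostatic chemokine genes tested, 1 rose and 2 fell. The rise was Cxcl13, which attracts B cells, from 0.599, 0.728 and 4.45 CPM to between 13.3 and 110.4 CPM (median 38.1, log2 change 4.58 ± 1.03, adjusted p = 0.00257), and the falls were Ccl27a and the receptor Ccr6 (-1.11 ± 0.29, adjusted p = 0.00598, lost without water replicate 3). A single left-out library moved some values by over 1.5 times: Ccl3 (4.76 without water replicate 1) and Cxcl13 (6.13 without water replicate 3). Counts that depended on 1 library were 2 monocyte and T cell chemokine rises without water replicate 2, 1 monocyte and T cell chemokine rise without water replicate 1, 1 monocyte and T cell chemokine fall without IMQ replicate 1 or IMQ replicate 3, 0 monocyte and T cell chemokine falls without water replicate 3, 2 homeostatic chemokine rises without IMQ replicate 1 and 1 homeostatic chemokine fall without water replicate 3.

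Regulators that feed back on NF-kB and STAT3 rose in 11 of 20 cases, with none falling (median 0.58). Socs3, an inhibitor of STAT3 signalling, went from 23.7, 25.0 and 24.1 CPM to between 61.5 and 115 CPM (median 97.8, log2 change 1.92 ± 0.37, adjusted p = 0.000905). Nfkbiz, an inducible partner of NF-kB that IL-17 and IL-36 switch on, rose from 69.7, 69.1 and 53.2 CPM to between 97.6 and 172 CPM (median 109, log2 change 0.95 ± 0.23, adjusted p = 0.00384). The inhibitor Nfkbia (1.07 ± 0.24, adjusted p = 0.00253), the RNase Zc3h12a (1.02 ± 0.25, adjusted p = 0.00497) and Bcl3 (1.26 ± 0.29, adjusted p = 0.0032) rose too, and none of these 5 overlapped between IMQ and water. Tnfaip3, the A20 brake on NF-kB, did not pass (0.61 ± 0.28, adjusted p = 0.099). The 250 bases before the starts of Socs3 (chr11:117969367-117969616, minus strand) and Il19 (chr1:130940116-130940365, minus strand) are shown because both held matches to the STAT motif TTCNNNGAA, in capitals.
Socs3: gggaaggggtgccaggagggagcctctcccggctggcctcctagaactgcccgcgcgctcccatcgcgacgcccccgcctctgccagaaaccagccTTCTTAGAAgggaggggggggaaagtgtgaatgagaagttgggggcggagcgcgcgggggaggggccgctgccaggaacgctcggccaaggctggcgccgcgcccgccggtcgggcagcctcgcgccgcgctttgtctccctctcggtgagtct
Il19: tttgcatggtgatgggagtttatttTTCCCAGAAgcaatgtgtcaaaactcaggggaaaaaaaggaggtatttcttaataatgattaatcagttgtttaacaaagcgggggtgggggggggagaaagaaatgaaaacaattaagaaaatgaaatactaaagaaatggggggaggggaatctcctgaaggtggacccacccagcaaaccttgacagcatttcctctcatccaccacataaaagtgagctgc
That motif was found in 7.15% of all promoters, in 6.03% of those of genes tested, in 9.42% of those of genes rising by at least 1 and in 4.50% of those falling by at least 1. Over all genes called, the share was 7.54% for rises and 5.19% for falls.

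Antimicrobial proteins rose in 12 of 22 cases and fell in 2 (median 1.56). S100a9, which pairs with S100a8 as calprotectin (gene ID 20202, GRCm38.p6 chromosome 3, 90692630 to 90695721), stood at 1527, 1027 and 218 CPM in the water libraries and 5204 to 11157 CPM under IMQ (median 6767, log2 change 2.97 ± 0.58, adjusted p = 0.000973). S100a8 was at 1117, 612 and 148 CPM and 2693 to 5458 CPM (median 3771, log2 change 2.66 ± 0.55, adjusted p = 0.00141). Water replicate 3 was lowest of all 9 libraries for both, and the groups did not overlap. Lcn2, lipocalin 2, which withholds iron from bacteria, went from 34.3, 16.7 and 20.2 CPM to between 118 and 259 CPM (median 145, log2 change 2.75 ± 0.38, adjusted p = 9.88e-05). Saa3, an acute-phase apolipoprotein, rose (4.38 ± 1.01, adjusted p = 0.00291), as did the protease inhibitor Slpi (2.62 ± 0.42, adjusted p = 0.000274) and the beta-defensins Defb14 (1.93 ± 0.39, adjusted p = 0.00115), Defb3 (4.05 ± 0.78, adjusted p = 0.00093) and Defb1 (1.48 ± 0.31, adjusted p = 0.00146). The falls were Defb6 (-0.87 ± 0.28, adjusted p = 0.023, lost without IMQ replicate 5 or water replicate 2 or 3) and Wfdc21 (-1.79 ± 0.34, adjusted p = 0.000874), of the whey acidic protein family. Camp, a granule peptide made in bone marrow precursors, was at 0.109, 0.132 and 0.113 CPM and 0.0678 to 0.841 CPM (median 0.192, log2 change 1.2 ± 1.29, adjusted p = 0.489). Stefin A and related genes, whose products inhibit cysteine proteases, rose in 8 of 12 cases and 1, Cst6, fell (-1.15 ± 0.26, adjusted p = 0.00267), with a median of 1.47. Csta3 (3.28 ± 0.57, adjusted p = 0.000475), Stfa2l1 (5.03 ± 1.27, adjusted p = 0.00549) and Cstdc5 (1.44 ± 0.29, adjusted p = 0.00113) were among the rises, and the counts of the stefin A cluster were shared between near-identical members, so single members are uncertain. Stfa2l1 had counts in water replicate 1 alone of the water libraries. The promoters of S100a9 (chr3:90695722-90695971, minus strand) and Lcn2 (chr2:32387740-32387989, minus strand) are printed with their matches to the C/EBP motif TTGCNNAA in capitals.
S100a9: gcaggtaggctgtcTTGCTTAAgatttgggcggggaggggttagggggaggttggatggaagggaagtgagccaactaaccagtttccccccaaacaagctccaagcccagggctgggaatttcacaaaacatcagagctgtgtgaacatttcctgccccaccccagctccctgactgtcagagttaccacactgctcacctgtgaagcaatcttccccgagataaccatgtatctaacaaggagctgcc
Lcn2: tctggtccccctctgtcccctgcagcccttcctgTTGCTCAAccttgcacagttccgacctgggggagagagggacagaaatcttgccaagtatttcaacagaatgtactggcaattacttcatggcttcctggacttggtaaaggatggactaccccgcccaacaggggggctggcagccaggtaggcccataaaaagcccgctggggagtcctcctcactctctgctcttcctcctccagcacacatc
This motif was in 9.56% of all promoters, in 8.09% of those of genes tested, in 15.2% for rises of at least 1 and in 11% for falls of at least 1. Over all genes called, the share was 8.97% for rises and 8.3% for falls. Values that moved by over 1.5 times with 1 library left out were S100a8 (3.38 without water replicate 1), Defb3 (4.74 without water replicate 1) and Stfa2l1 (10.26 without water replicate 1). A left-out library gave 1 antimicrobial fall without IMQ replicate 5, water replicate 2 or water replicate 3.

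**Figure D2:**
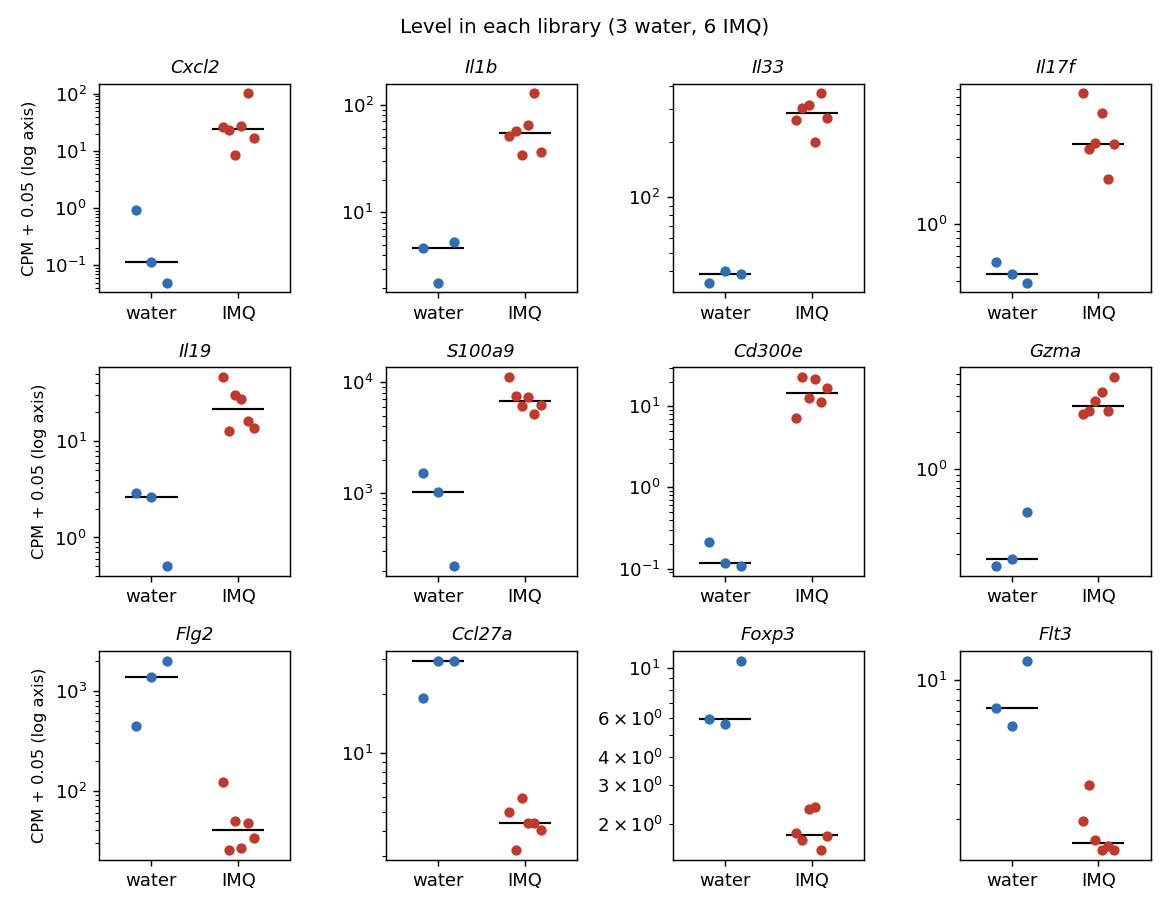
Level per library (CPM plus 0.05, log axis) for 12 genes, 1 panel each. Blue circles are the 3 water libraries, red circles the 6 IMQ libraries and bars the group medians, and in each panel all red points lie on 1 side of the blue ones. The 12 genes were chosen for display, and 26.7% of all genes tested were without overlap.

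Receptors of neutrophils and macrophages rose broadly. Paired and activating myeloid receptors rose in 21 of 28 cases tested with no fall (median 1.44), and Fc receptors with their adaptors in 9 of 13 with no fall (median 1.22). Cd300e, an activating receptor of monocytes, went from 0.163, 0.0662 and 0.0563 CPM to between 7.12 and 23 CPM (median 14.5, log2 change 7.20 ± 0.93, adjusted p = 6.25e-05). Fpr1 and Fpr2, receptors of bacterial formyl peptides, rose by 6.59 ± 1.37 and 4.46 ± 0.87. The C-type lectins Clec4d (3.68 ± 0.86, adjusted p = 0.00333) and Clec4e (3.93 ± 0.99, adjusted p = 0.00514), which bind fungal and mycobacterial lipids, rose with Trem1 (4.14 ± 0.96, adjusted p = 0.00307), an amplifier of neutrophil responses. Fcgr4, a receptor of immunoglobulin G on myeloid cells, rose from 0.654, 0.397 and 1.63 CPM to between 5.02 and 20.04 CPM (median 14.7, log2 change 3.98 ± 0.53, adjusted p = 7.37e-05). Fcrl5, an Fc receptor-like gene, had 0 counts in every water library and 2.37 to 17.1 CPM under IMQ (median 9.42, adjusted p = 0.000397). Its IMQ mean of 9.74 CPM was 166-fold the floor of 3 counts over the water group. Clec7a, dectin-1, did not pass (0.44 ± 0.31, adjusted p = 0.273), and neither did Trem2 (-0.61 ± 0.53, adjusted p = 0.384). Leaving out 1 library at a time moved Cd300e (7.82 without water replicate 1), Fpr1 (7.76 without water replicate 1) and Fcgr4 (4.74 without water replicate 3).

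Among markers of the cell types concerned, 9 of 11 tested neutrophil markers rose and none fell, and their summed level was 458 to 2722 CPM under water and 8315 to 16773 CPM under IMQ. That sum is carried by S100a8 and S100a9, which activated keratinocytes also express, and its highest value was in IMQ replicate 1 and its lowest IMQ value in replicate 5. Ly6g, a defining neutrophil marker, was at 0, 0 and 0 CPM in the water libraries and at most 0.490 CPM under IMQ, too low to test. Of 12 monocyte and macrophage markers 6 rose and none fell. Adgre1, the F4/80 antigen of macrophages, rose from 28.7, 32.9 and 53.0 CPM to between 76.9 and 266 CPM (median 229, log2 change 2.42 ± 0.40, adjusted p = 0.000334), while Csf1r (0.24 ± 0.23, adjusted p = 0.428) and Mrc1 (0.37 ± 0.29, adjusted p = 0.328) did not pass. In the complement list 6 of 19 rose and none fell (median 0.24), among them C1qa (1.14 ± 0.27, adjusted p = 0.00335) and the receptor C3ar1 (1.75 ± 0.43, adjusted p = 0.00437), and C3 did not pass (0.35 ± 0.41, adjusted p = 0.531). The oxidase subunits Ncf4 (1.23 ± 0.32, adjusted p = 0.00619) and Rac2 (1.57 ± 0.39, adjusted p = 0.00501) of phagocytes and the epithelial oxidase Duox1 (1.36 ± 0.28, adjusted p = 0.00139) were among 7 rises in 14 NADPH oxidase and nitric oxide synthase genes tested. The 1 fall was Duox2 (-1.27 ± 0.46, adjusted p = 0.0382, lost without IMQ replicate 1, 2 or 5 or water replicate 2 or 3). The counts became, with 1 library left out, 3 complement rises without water replicate 1 and 4 oxidase rises without water replicate 1.

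Genes of macrophage polarisation and type 2 immunity split, with 3 rises and 2 falls in 11 tested. Chil3, a chitinase-like lectin, rose from 1.25, 0.199 and 0.563 CPM to between 12.2 and 64.8 CPM (median 38.2, log2 change 5.70 ± 1.27, adjusted p = 0.00241), and Il4ra, the receptor chain of IL-4 and IL-13, from 83.8, 84.0 and 106 CPM to between 158 and 299.8 CPM (median 209, log2 change 1.25 ± 0.29, adjusted p = 0.00311). Retnla, a resistin-like protein of alternatively activated macrophages, fell from 38.0, 150.4 and 88.9 CPM to between 3.80 and 18.5 CPM (median 11.1, log2 change -3.08 ± 0.68, adjusted p = 0.0022). Mgl2, a lectin of dermal dendritic cells and macrophages, fell as well (-2.64 ± 0.42, adjusted p = 0.000233), with its highest value in water replicate 3. All IMQ libraries lay below all water libraries for both falls. Values moved, with 1 library left out, by over 1.5 times for Chil3 (6.51 without water replicate 1) and Mgl2 (-1.59 without water replicate 3).

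Of 10 dendritic cell markers 7 fell and none rose, and their summed level was 81.4 to 176 CPM under water and 31.7 to 70.7 CPM under IMQ. Flt3, the growth factor receptor of dendritic cells, fell from 7.19, 5.82 and 12.5 CPM to between 1.34 and 2.91 CPM (median 1.45, log2 change -2.29 ± 0.27, adjusted p = 3.33e-05). Xcr1 (-2.58 ± 0.35, adjusted p = 7.76e-05) and Clec9a (-5.77 ± 0.87, adjusted p = 0.000179), markers of cross-presenting dendritic cells, and Cd209a (-4.18 ± 0.78, adjusted p = 0.000723) fell with it. Among 22 antigen presentation genes tested, 5 fell and 1 rose (median -0.25). The falls were in class II presentation, such as H2-Aa from 203, 223 and 438 CPM to between 88.7 and 196 CPM (median 134, log2 change -1.06 ± 0.30, adjusted p = 0.0108) and the invariant chain Cd74 (-1.11 ± 0.31, adjusted p = 0.0099). Water replicate 3 held the highest value of both, and both calls were lost without it. The class I gene H2-D1 was the rise (0.40 ± 0.11, adjusted p = 0.00817, lost without water replicate 1). Over 1.5 times apart from the value of all 9 libraries were Clec9a (-4.61 without water replicate 3) and Cd209a (-3.51 without water replicate 3). Single left-out libraries changed the counts to 2 antigen presentation rises without IMQ replicate 1, IMQ replicate 5 or water replicate 3 and 0 antigen presentation falls without water replicate 3.

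Of 9 T cell markers 8 fell and none rose, with a summed level of 179 to 240.3 CPM under water and 78.6 to 162 CPM under IMQ. Cd3e, a chain of the T cell receptor complex, went from 4.69, 6.68 and 9.63 CPM to between 0.814 and 2.80 CPM (median 2.24, log2 change -1.73 ± 0.30, adjusted p = 0.000479). In the list of regulatory T cell and checkpoint genes 6 of 15 fell and 1 rose (median -0.69), the rise being Cd274, which encodes PD-L1 (0.99 ± 0.35, adjusted p = 0.0365, lost without IMQ replicate 1 or 4 or water replicate 1 or 2). Foxp3, their defining factor, fell from 5.88, 5.56 and 10.8 CPM to between 1.47 and 2.34 CPM (median 1.73, log2 change -1.98 ± 0.30, adjusted p = 0.000209), and the checkpoint receptor Ctla4 fell too (-1.64 ± 0.36, adjusted p = 0.00228). Itgae, an integrin that holds T cells in epithelium, fell from 22.4, 19.2 and 34.6 CPM to between 5.75 and 8.48 CPM (median 7.26, log2 change -1.79 ± 0.26, adjusted p = 0.00016). Gzma, a granzyme of cytotoxic lymphocytes, moved the other way, from 0.109, 0.132 and 0.394 CPM to between 2.78 and 5.66 CPM (median 3.28, log2 change 4.07 ± 0.63, adjusted p = 0.000212). In its list 2 of 14 genes tested rose and 2 fell, where 15.5% of all genes tested rose and 17.5% fell. Of 8 innate lymphoid and natural killer cell markers, 4 fell and 1 rose (median -0.71), with 2 falls left without water replicate 3. The natural killer marker Ncr1, of that list, did not pass (0.71 ± 0.47, adjusted p = 0.252). Dependence on 1 library, by over 1.5 times, was seen for Gzma (4.87 without water replicate 3). The counts with 1 library left out came to 3 regulatory T cell and checkpoint falls without water replicate 3, 1 cytotoxic lymphocyte rise without IMQ replicate 1, IMQ replicate 4, IMQ replicate 6, water replicate 1, water replicate 2 or water replicate 3, 1 cytotoxic lymphocyte fall without IMQ replicate 6, water replicate 1 or water replicate 2 and 0 cytotoxic lymphocyte falls without IMQ replicate 1, IMQ replicate 2, IMQ replicate 3, IMQ replicate 4, IMQ replicate 5 or water replicate 3.

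Small proline-rich proteins, cross-linked into the envelope of stressed keratinocytes, rose in 12 of 16 cases and 1 fell, with a median of 2.65. Sprr2d stood at 321, 306 and 99.4 CPM in the water libraries and 1184 to 2119.6 CPM under IMQ (median 1287, log2 change 2.56 ± 0.43, adjusted p = 0.000397), and Sprr1b at 546, 858 and 266 CPM and 1777 to 2914 CPM (median 2239.6, log2 change 2.01 ± 0.39, adjusted p = 0.00104). Sprr2i rose by 4.05 ± 0.86. Sprr4 was the 1 member that fell, from 29.2, 71.1 and 108 CPM to between 5.48 and 16.4 CPM (median 9.59, log2 change -2.70 ± 0.42, adjusted p = 0.000219), and its groups did not overlap. Sprr2a1 and Sprr2a2 had identical values in all 9 libraries and did not pass (1.12 ± 0.44, adjusted p = 0.0508).

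Late cornified envelope genes divided between their LCE1 and LCE3 groups. All 14 LCE1 genes and Lce6a fell, and all 6 LCE3 genes rose. All 6 rises were without overlap between the groups, but only 1 of the falls was, that of Lce1m. Over all genes tested, the shares without overlap were 13.2% above and 13.5% below. Lce1m went from 23.4, 90.9 and 104 CPM to between 5.26 and 17.6 CPM (median 7.68, log2 change -3.01 ± 0.43, adjusted p = 0.000115) and Lce1c from 132, 329 and 217 CPM to between 58.3 and 165 CPM (median 73.4, log2 change -1.38 ± 0.29, adjusted p = 0.00173). The groups did not overlap for Lce1m, and for Lce1c the IMQ replicate 1 value lay above water replicate 1. Lce3b rose from 35.5, 34.6 and 6.48 CPM to between 151 and 271 CPM (median 169, log2 change 2.86 ± 0.56, adjusted p = 0.001) and Lce3c from 46.5, 78.9 and 20.1 CPM to between 129 and 179 CPM (median 139.8, log2 change 1.6 ± 0.36, adjusted p = 0.00244), with every IMQ library above every water library. Counts of nearly all SPRR and LCE genes, like those of the keratins below, were not whole numbers, and the counting tool RSEM divides reads between similar genes, so the split within a family is less certain than its sum. Without 1 library the counts were 6 LCE falls without water replicate 2.

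**Figure D3:**
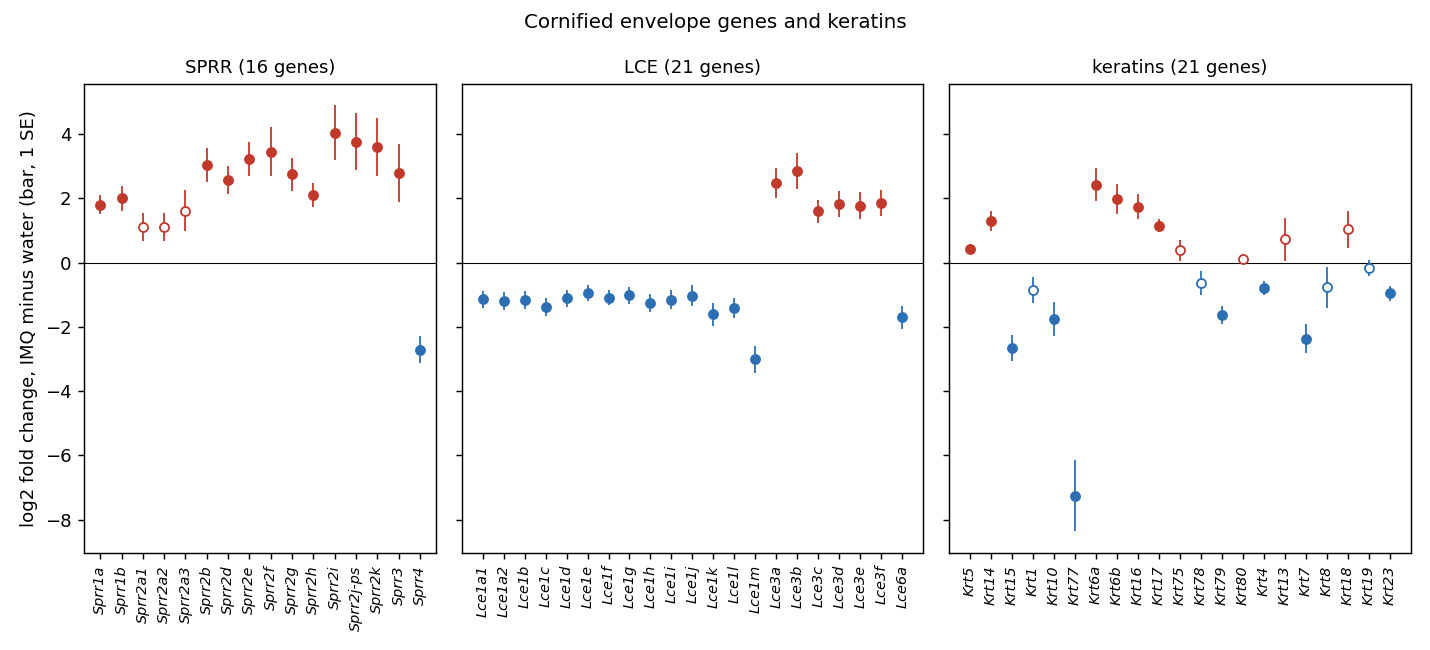
Log2 fold change (IMQ minus water) with bars of 1 SE for the 16 SPRR genes, the 21 LCE genes and 21 epidermal keratins. Filled points passed the test and open points did not; the LCE1 points lie below 0 and the LCE3 points above it.

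Other envelope and desquamation genes gave 11 rises and 6 falls in 35 (median 0.21). Flg2, a filaggrin-like protein that shapes the outer cornified layer (gene ID 229574, GRCm38.p6 chromosome 3, 93197273 to 93221377), fell from 448, 1380.2 and 2003 CPM to between 25.3 and 123 CPM (median 40.6, log2 change -4.65 ± 0.57, adjusted p = 5.04e-05), with no overlap. Lor, loricrin, the main protein of the normal envelope, fell from 1081, 2411 and 1557 CPM to between 247 and 1195 CPM (median 448, log2 change -1.64 ± 0.39, adjusted p = 0.0038). Its highest IMQ value, in replicate 1, lay within the water range. Hrnr, hornerin, fell as well (-1.16 ± 0.35, adjusted p = 0.0164, lost without water replicate 2 or 3). The cross-linking transglutaminase Tgm1 rose (1.10 ± 0.28, adjusted p = 0.0051), as did the kallikrein protease Klk6, from 395, 517 and 192 CPM to between 998 and 1566 CPM (median 1059, log2 change 1.63 ± 0.32, adjusted p = 0.0011), and the desmosomal cadherin Dsc2 (2.21 ± 0.51, adjusted p = 0.00299). Spink5, an inhibitor of kallikreins, did not pass (0.36 ± 0.18, adjusted p = 0.133). Counts that depended on 1 library were 6 envelope and desquamation rises without water replicate 3 and 2 envelope and desquamation falls without water replicate 2.

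The 250 bases before the starts of Sprr1b (chr3:92438780-92439029, minus strand), Flg2 (chr3:93197023-93197272, plus strand) and Lor (chr3:92083143-92083392, minus strand) are shown because all 3 held the AP-1 motif TGANTCA, in capitals, although Sprr1b rose and the others fell.
Sprr1b: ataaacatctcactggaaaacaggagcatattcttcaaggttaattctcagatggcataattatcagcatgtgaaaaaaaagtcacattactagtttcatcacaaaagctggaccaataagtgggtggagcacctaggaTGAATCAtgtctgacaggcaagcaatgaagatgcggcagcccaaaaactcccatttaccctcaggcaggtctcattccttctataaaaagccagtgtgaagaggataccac
Flg2: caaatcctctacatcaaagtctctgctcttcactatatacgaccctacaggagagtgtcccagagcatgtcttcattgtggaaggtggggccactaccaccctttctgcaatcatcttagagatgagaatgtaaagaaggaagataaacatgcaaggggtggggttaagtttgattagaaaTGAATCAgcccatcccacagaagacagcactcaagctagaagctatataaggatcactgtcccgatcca
Lor: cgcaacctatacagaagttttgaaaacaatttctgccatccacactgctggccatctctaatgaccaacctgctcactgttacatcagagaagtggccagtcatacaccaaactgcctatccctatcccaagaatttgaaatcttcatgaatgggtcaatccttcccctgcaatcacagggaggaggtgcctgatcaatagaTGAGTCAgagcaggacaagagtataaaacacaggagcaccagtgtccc
The motif was in 6.86% of all promoters and in 5.04% of those of genes tested. It was in 11.6% of those of genes that rose by at least 1 and in 6.89% of those that fell by at least 1. Over all genes called, the share was 5.84% for rises and 5.14% for falls. The same search covered further motifs, given here as the share for rises of at least 1, falls of at least 1 and genes tested. It was 4.83%, 2.25% and 2.72% for an interferon element and 1.93%, 1.06% and 0.69% for the D-box. For the E-box it was 5.80%, 6.2% and 8.1%. The sterol element (0.24%, 0.40% and 0.17%) and E2F (0.24%, 0.40% and 0.72%) each had 1 match among these rises. A higher share in rises was thus not particular to the motifs printed.

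Keratins divided along similar lines, with 6 rises and 7 falls in 21 tested. The wound and stress keratins rose: Krt6a from 3198, 3253 and 996 CPM to between 11140.4 and 15933 CPM (median 13460.3, log2 change 2.43 ± 0.51, adjusted p = 0.00153), Krt16 from 4232, 4303 and 1344 CPM to between 8972 and 15356 CPM (median 10479, log2 change 1.75 ± 0.39, adjusted p = 0.00249) and Krt17 (1.16 ± 0.20, adjusted p = 0.00052). The basal keratin Krt14 rose (1.30 ± 0.32, adjusted p = 0.00467) while Krt15, a basal and hair bulge keratin, fell from 293, 492 and 851 CPM to between 49.7 and 110.0 CPM (median 95.5, log2 change -2.66 ± 0.40, adjusted p = 0.000185). Krt77, a keratin of sweat ducts and suprabasal cells, fell furthest, from 64.2, 136 and 482 CPM to between 0.848 and 2.51 CPM (median 1.17, log2 change -7.26 ± 1.10, adjusted p = 0.000193). Krt10, the keratin of spinous cells, fell (-1.75 ± 0.52, adjusted p = 0.0145, lost without water replicate 2), with IMQ replicate 1 at 13776 CPM inside the water range and the other 5 IMQ libraries below it. Its partner Krt1 did not pass (-0.85 ± 0.39, adjusted p = 0.097). A single left-out library moved some values by over 1.5 times: Krt77 (-6.07 without water replicate 3) and Krt10 (-2.37 without IMQ replicate 1).

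Ligands of the epidermal growth factor receptor, which drive keratinocyte growth and repair, gave 4 rises and 2 falls in 12 genes tested. Hbegf went from 23.2, 30.1 and 9.58 CPM to between 84.2 and 226 CPM (median 140.1, log2 change 2.77 ± 0.54, adjusted p = 0.00103), Areg from 2.62, 4.90 and 1.69 CPM to between 8.53 and 31.9 CPM (median 18, log2 change 2.59 ± 0.60, adjusted p = 0.00323) and Tgfa from 45.8, 66.6 and 41.4 CPM to between 115 and 218 CPM (median 151, log2 change 1.6 ± 0.28, adjusted p = 0.000442). No library overlapped for these. Nrg4, a ligand of ErbB4, fell (-1.88 ± 0.41, adjusted p = 0.00189), and the receptor Egfr did not pass (0.17 ± 0.11, adjusted p = 0.215). Of 36 cell cycle genes 9 rose and 1 fell (median 0.22). The rises were genes of S phase entry and DNA replication, such as the helicase subunits Mcm3 (57.1, 46.4 and 35.5 CPM against 63.4 to 80.6 CPM, median 70.4, log2 change 0.62 ± 0.13, adjusted p = 0.00175) and Mcm4 (0.65 ± 0.13, adjusted p = 0.00119), and the fall was the mitotic gene Cenpf (-0.49 ± 0.16, adjusted p = 0.0198, lost without water replicate 1 or 2). Of the others, Ccne1 (0.83 ± 0.21, adjusted p = 0.00507), Mcm2 (0.45 ± 0.15, adjusted p = 0.0232), Pcna (0.36 ± 0.10, adjusted p = 0.00871) and Rrm2 (0.58 ± 0.18, adjusted p = 0.0171) lost their calls without water replicate 3. The proliferation marker Mki67 stood at 515, 438 and 263 CPM and 272 to 458 CPM (median 359) and overlapped (-0.17 ± 0.16, adjusted p = 0.421), with water replicate 3 lowest of the 9 libraries. A left-out library gave 1 epidermal growth factor fall without water replicate 3, 14 cell cycle rises without water replicate 1, 2 cell cycle rises without water replicate 3 and 2 cell cycle falls without IMQ replicate 3.

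Lipid genes of the sebaceous gland fell. All 8 sebocyte markers fell, their summed level being 1567 to 2371 CPM under water and 505 to 1067 CPM under IMQ, and 15 of 24 genes of the sebaceous and fatty acid list fell with no rise (median -1.2). Scd1, the desaturase that makes monounsaturated fatty acids, fell from 2771, 2833 and 4833 CPM to between 448 and 1399 CPM (median 718, log2 change -2.15 ± 0.34, adjusted p = 0.000241). Far2, which makes fatty alcohols for wax (-2.28 ± 0.48, adjusted p = 0.00151), the wax synthase Awat1 (-2.08 ± 0.45, adjusted p = 0.00194) and the receptor Mc5r (-2.75 ± 0.53, adjusted p = 0.000959) fell. Fasn, the fatty acid synthase used by all lipogenic cells, did not pass (-0.55 ± 0.22, adjusted p = 0.0565). IMQ replicate 4 was the highest IMQ library for Scd1, Far2 and Awat1.

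Genes for ceramides of the epidermal barrier split, with 8 rises and 5 falls in 26 tested. Fa2h, a fatty acid hydroxylase, fell from 268, 374 and 682 CPM to between 35.9 and 161 CPM (median 52.7, log2 change -2.70 ± 0.48, adjusted p = 0.000566), and the ceramide synthase Cers4 fell (-2.18 ± 0.41, adjusted p = 0.000825). Degs2, which makes phytoceramides, rose (0.80 ± 0.21, adjusted p = 0.00622). The barrier transporter Abca12 did not pass (0.24 ± 0.22, adjusted p = 0.398). In cholesterol synthesis 9 of 23 genes rose and 1 fell (median 0.35). The rises were modest, such as Hsd17b7 (0.90 ± 0.21, adjusted p = 0.0028) and Sc5d (0.84 ± 0.16, adjusted p = 0.000842). The counts became, with 1 library left out, 16 ceramide rises without water replicate 2, 5 ceramide rises without water replicate 3, 2 ceramide falls without water replicate 2 or water replicate 3, 5 cholesterol rises without water replicate 3, 4 cholesterol rises without water replicate 1 and 2 cholesterol falls without IMQ replicate 1.

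Lipid mediators changed in both directions. Ptgs2, cyclooxygenase 2, went from 0.981, 1.65 and 1.18 CPM to between 7.86 and 47.4 CPM (median 16.2, log2 change 3.98 ± 1.02, adjusted p = 0.00589), and the prostaglandin E synthase Ptges rose (1.09 ± 0.27, adjusted p = 0.0051). The phospholipases Pla2g4d (18.3, 15.8 and 2.65 CPM against 59.8 to 117 CPM, median 77.4, log2 change 2.71 ± 0.54, adjusted p = 0.00117) and Pla2g4e (1.49 ± 0.35, adjusted p = 0.00352) rose and Pla2g5 fell (-2.41 ± 0.50, adjusted p = 0.00146), within 9 rises and 5 falls in 21 genes tested. Of 12 lipoxygenase and leukotriene genes 4 rose and 2 fell. Alox8 rose from 34.4, 28.5 and 12.8 CPM to between 58.9 and 547 CPM (median 140.1, log2 change 2.99 ± 0.70, adjusted p = 0.00322), with IMQ replicate 1 highest. Alox12e, an epidermal lipoxygenase, fell from 121, 176 and 209.9 CPM to between 1.75 and 11.6 CPM (median 8.32, log2 change -4.54 ± 0.67, adjusted p = 0.00016) and Alox15 from 4.69, 3.57 and 3.77 CPM to between 0.407 and 1.05 CPM (median 0.660, log2 change -2.54 ± 0.39, adjusted p = 0.000215). The leukotriene B4 receptor Ltb4r1 rose (1.03 ± 0.21, adjusted p = 0.00143). Alox12b, needed for the ceramide barrier, did not pass (0.44 ± 0.28, adjusted p = 0.227). Values that moved by over 1.5 times with 1 library left out were Pla2g5 (-1.73 without water replicate 3) and Alox8 (2.40 without IMQ replicate 1).

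Hair follicle genes fell in 11 of 21 cases tested and 1 rose (median -2.53). The water libraries themselves differed widely here: Krt28, an inner root sheath keratin, stood at 44.7, 30.6 and 1.80 CPM in them and at 0.121 to 1.04 CPM under IMQ (median 0.592, log2 change -5.43 ± 1.16, adjusted p = 0.00175). Krt71, another inner sheath keratin, was at 98.7, 48.4 and 0.845 CPM in the water libraries, overlapped with 0 to 9.88 CPM under IMQ (median 0.165) and did not pass (-4.30 ± 1.88, adjusted p = 0.0807). Hoxc13, a regulator of hair keratins, fell from 14.3, 11.8 and 6.99 CPM to between 1.68 and 3.68 CPM (median 2.97, log2 change -1.98 ± 0.41, adjusted p = 0.00147), as did Lhx2 of follicle stem cells (-1.89 ± 0.42, adjusted p = 0.00224) and the Wnt mediator Lef1 (-1.92 ± 0.48, adjusted p = 0.00499). Foxn1, which keratinocytes use in both hair and epidermis, was the rise (0.88 ± 0.22, adjusted p = 0.00589, lost without water replicate 3). In 8 melanocyte markers 3 fell, among them Kit (-1.01 ± 0.18, adjusted p = 0.000658). Leaving out 1 library at a time moved Krt28 (-4.76 without water replicate 1). Single left-out libraries changed the counts to 6 melanocyte marker falls without IMQ replicate 6.

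Dermal matrix genes fell, with 16 of 26 lower and none higher (median -0.79). Col1a2, a chain of type I collagen, went from 5974, 3504 and 3822 CPM to between 943 and 2249 CPM (median 1582, log2 change -1.41 ± 0.27, adjusted p = 0.00093). Col16a1 (-1.23 ± 0.17, adjusted p = 9.44e-05) and fibromodulin, Fmod (-1.51 ± 0.33, adjusted p = 0.00196), fell with no overlap. Col1a1 (-1.36 ± 0.33, adjusted p = 0.00388) and Col3a1 (-1.10 ± 0.32, adjusted p = 0.0124) fell in the same way but lost their calls without water replicate 1. Col4a1, a basement membrane collagen, did not pass (0.20 ± 0.18, adjusted p = 0.395). IMQ replicate 1 had the lowest value of all 9 libraries for Col1a2, Col16a1 and Fmod. Summed fibroblast markers lay at 10451 to 17711 CPM under water and 3364 to 8584 CPM under IMQ, with 5 of 8 falling and none rising. Of 11 skeletal muscle markers 1 fell (summed level 3393 to 7557 CPM against 1257 to 3271 CPM), and of 10 adipocyte markers 1 fell (841 to 1429 CPM against 348 to 1126 CPM). The part of these cell types in the fall of matrix genes was not tested. The counts with 1 library left out came to 8 collagen and matrix falls without water replicate 1, 3 fibroblast marker falls without water replicate 1, 3 skeletal muscle marker falls without IMQ replicate 2, 0 skeletal muscle marker falls without IMQ replicate 1, IMQ replicate 4 or water replicate 3, 3 adipocyte marker falls without IMQ replicate 3 or water replicate 2, 2 adipocyte marker falls without IMQ replicate 4 or IMQ replicate 5 and 0 adipocyte marker falls without water replicate 1 or water replicate 3.

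Metalloproteinase genes changed in both directions, and most genes of the plasminogen and wound list rose. Of 17 metalloproteinases and inhibitors tested 8 rose and 4 fell. Mmp8, neutrophil collagenase, went from 2.07, 1.12 and 0.507 CPM to between 6.10 and 14.2 CPM (median 10.5, log2 change 3.06 ± 0.80, adjusted p = 0.00684) and Mmp13 from 3.0, 1.52 and 2.03 CPM to between 12.2 and 77.8 CPM (median 18.1, log2 change 3.59 ± 1.19, adjusted p = 0.0252, lost without IMQ replicate 5 or any 1 water library). The inhibitor Timp3 fell (-1.37 ± 0.28, adjusted p = 0.0014). In the plasminogen and wound list 11 of 16 rose and 1 fell (median 0.81). The urokinase receptor Plaur (1.72 ± 0.35, adjusted p = 0.0013) and tenascin C, Tnc (372, 202 and 156 CPM against 419 to 1279 CPM, median 837, log2 change 1.79 ± 0.39, adjusted p = 0.00195), rose, and fibronectin, Fn1, was the fall (-1.07 ± 0.21, adjusted p = 0.00117). Of 14 adhesion genes tested 9 rose and 2 fell. The endothelial gene Pecam1 rose (0.72 ± 0.15, adjusted p = 0.00147), as did Selp, P-selectin, which catches leukocytes (1.59 ± 0.44, adjusted p = 0.00878), and the integrin chain Itgam of myeloid cells (1.98 ± 0.40, adjusted p = 0.00118). Itgax, a dendritic cell integrin, fell (-1.18 ± 0.27, adjusted p = 0.00272). Values moved, with 1 library left out, by over 1.5 times for Mmp8 (3.69 without water replicate 1) and Itgam (2.58 without water replicate 3). Without 1 library the counts were 5 metalloproteinase rises without IMQ replicate 5, 2 metalloproteinase rises without water replicate 2 or water replicate 3, 1 metalloproteinase rise without water replicate 1, 1 metalloproteinase fall without water replicate 3 and 4 adhesion rises without water replicate 1 or water replicate 2.

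Junction genes gave 6 rises and 9 falls in 20 tested. The gap junction gene Gjb2, connexin 26, rose from 431, 573 and 154 CPM to between 1698 and 2620.0 CPM (median 1911, log2 change 2.40 ± 0.47, adjusted p = 0.000991) and Gjb6 (2.23 ± 0.42, adjusted p = 0.000842) with it. Cldn1, the main claudin of the epidermal barrier, fell from 183, 214 and 199 CPM to between 103 and 187 CPM (median 119, log2 change -0.65 ± 0.16, adjusted p = 0.0054), and Cldn23 (-1.83 ± 0.31, adjusted p = 0.00038) and Cldn10 (-2.29 ± 0.41, adjusted p = 0.000551) fell. IMQ replicate 1 was inside the water range for Cldn1 and the other 5 IMQ libraries lay below it. Among targets of the aryl hydrocarbon receptor, Cyp1a1 fell from 10.6, 15 and 35.9 CPM to between 1.46 and 6.37 CPM (median 2.90, log2 change -2.64 ± 0.48, adjusted p = 0.000593) and Tiparp rose (1.19 ± 0.25, adjusted p = 0.00163). The receptor Ahr itself fell (-0.66 ± 0.17, adjusted p = 0.00563). Over 1.5 times apart from the value of all 9 libraries were Cyp1a1 (-1.95 without water replicate 3).

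**Figure D4:**
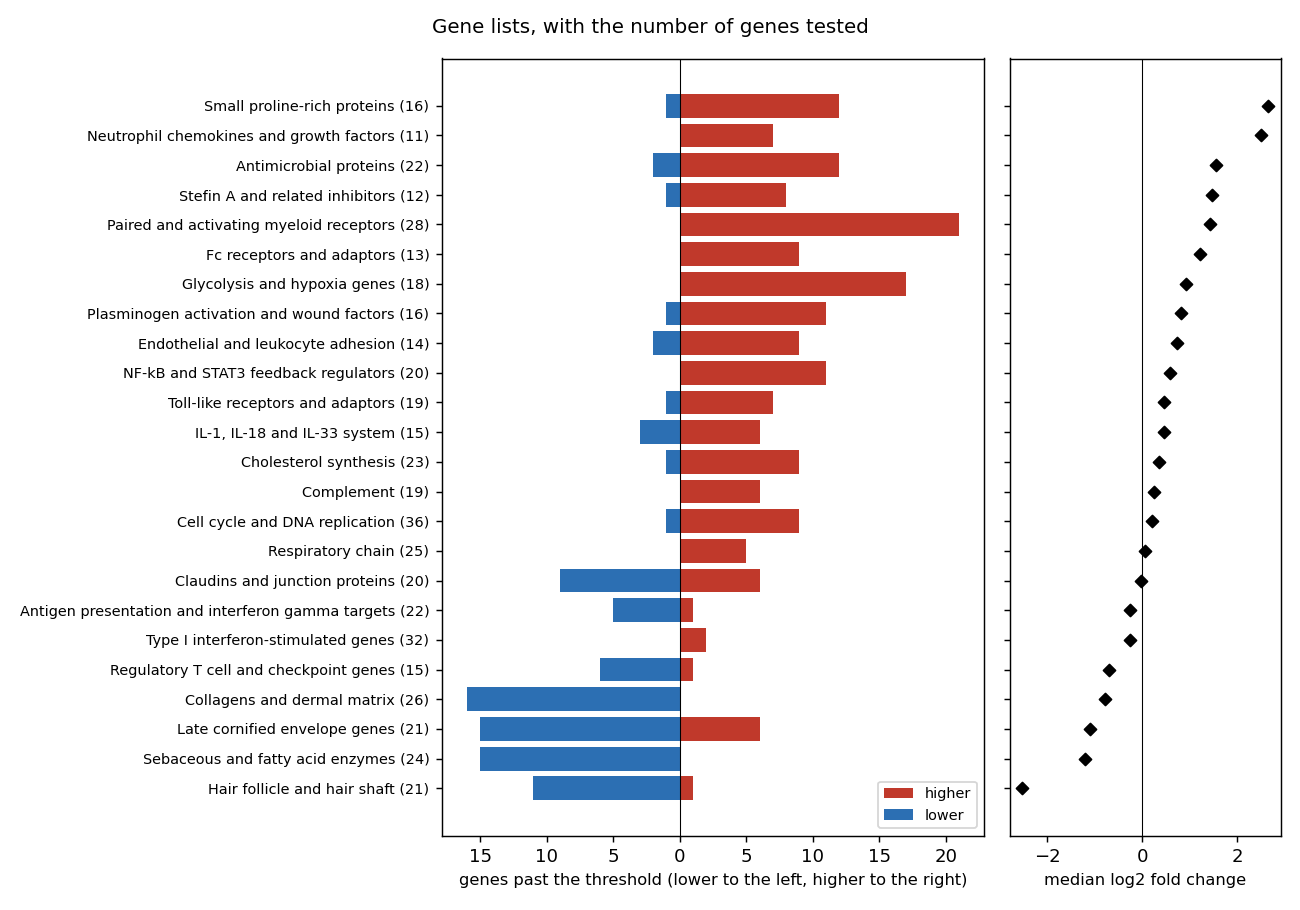
Left, number of genes higher (red bars) and lower (blue bars) under IMQ, and right, median log2 fold change of the genes tested (diamonds), for 24 gene lists described in the text, ordered by their median. Glycolysis genes are nearly all higher, sebaceous and collagen genes have no higher member, and interferon-stimulated genes have 2 higher of 32.

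Of 18 glycolysis and hypoxia genes 17 rose and none fell, with a median of 0.93, and in all 17 every IMQ library lay above every water library. Pgk1, a glycolytic kinase, went from 254, 279 and 294 CPM to between 521 and 729 CPM (median 579, log2 change 1.14 ± 0.15, adjusted p = 5.95e-05). Slc2a1, the glucose transporter GLUT1, rose from 118, 117 and 97.2 CPM to between 289 and 423 CPM (median 351, log2 change 1.66 ± 0.27, adjusted p = 0.000333) and Slc16a3, a lactate exporter, from 18.4, 16.1 and 22.3 CPM to between 58.8 and 114 CPM (median 75.7, log2 change 2.11 ± 0.38, adjusted p = 0.000553). Hif1a (1.06 ± 0.22, adjusted p = 0.00146), the regulator of hypoxia genes, and Vegfa (1.16 ± 0.26, adjusted p = 0.00261) rose. Aldoa was the member that did not pass (0.23 ± 0.11, adjusted p = 0.127). In the respiratory chain 5 of 25 genes rose and none fell (median 0.06), where 15.5% of all genes tested rose and 17.5% fell. The rises there were small, such as Cycs, cytochrome c, from 113, 109 and 107 CPM to between 126 and 154 CPM (median 138, log2 change 0.34 ± 0.08, adjusted p = 0.00445). Counts that depended on 1 library were 10 respiratory chain rises without water replicate 2, 3 respiratory chain rises without IMQ replicate 2 or water replicate 3 and 2 respiratory chain rises without water replicate 1.

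Of 20 stress genes 8 rose and 1 fell. Nqo1, an oxidative stress gene, rose (1.18 ± 0.27, adjusted p = 0.00258), the endoplasmic reticulum chaperone Hspa5 did not pass (0.28 ± 0.14, adjusted p = 0.134), and Mt4, a metallothionein of differentiated epithelium, fell from 8.28, 24.4 and 21.9 CPM to between 0.0606 and 1.22 CPM (median 0.491, log2 change -5.08 ± 0.77, adjusted p = 0.000194). In the circadian clock list 2 of 18 rose and 5 fell, where 15.5% of all genes tested rose and 17.5% fell. Bhlhe40, a clock and hypoxia repressor, rose from 70.3, 60.3 and 36.5 CPM to between 116 and 242 CPM (median 153, log2 change 1.57 ± 0.28, adjusted p = 0.000496), and Arntl, which encodes BMAL1, fell from 35.2, 42.9 and 48.8 CPM to between 23 and 30.3 CPM (median 28.6, log2 change -0.62 ± 0.15, adjusted p = 0.00372). Npas2 (-1.30 ± 0.27, adjusted p = 0.00158) and Hlf (-1.02 ± 0.21, adjusted p = 0.00126) fell as well. The labels give no hour of sampling. A left-out library gave 3 stress rises without water replicate 3, 2 stress rises without water replicate 1, 1 clock rise without water replicate 1 or water replicate 3 and 3 clock falls without water replicate 3.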

How the data were processed

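RNA-seq of skin gave 1 table of expected counts per mouse gene, which the authors made with RSEM on mm10 per the submitters' processing notes. The aligner, versions and annotation are not given in the sources used here. Libraries were made with a strand-specific kit, per the labels' protocols. RSEM divides reads between similar genes, so 16.4% of the deposited values of the 9 libraries were not whole (tolerance 0.001), and members of gene families are less certain. The deposited expected counts were rounded to whole numbers. Gene IDs were matched to symbols in the RefSeq table of GRCm38.p6, and 24375 of 24475 had one, or 24382 with GENCODE's ID tables added.

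All 23 skin libraries entered 1 edgeR fit (version 4.0.16, R 4.3.3; filterByExpr, TMM factors, quasi-likelihood F test) with group as the only term, and the 14 antibody-treated libraries added to the estimate of the spread. P-values were adjusted by Benjamini and Hochberg over the 15345 genes tested. CPM are per TMM-adjusted library total. The code was tested on simulated counts. Alternatives were DESeq2 (1.42.0), limma-voom (3.58.1), other scalings and filters, fewer libraries, and each library left out in turn. The 250 bases before each gene start in the RefSeq promoter table were searched for motifs on both strands.

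The members and lists were chosen with earlier results of these data known. Genes were named by a rule: preset genes of each list, the 4 largest changes per list, the 20 largest rises and falls among abundant genes, the 10 lowest p-values in each direction, the 15 most abundant changed genes, and up to 2 unchanged members per list. Another 34 were chosen after their values were seen: Adgre1, Ahr, Aim2, Casp1, Cd207, Cd209a, Cd22, Cd3e, Cd79b, Cdh5, Cenpf, Cldn3, Clec9a, Col4a1, Csf1r, Emcn, Fn1, Foxn1, H2-D1, Hdc, Il18r1, Il1f10, Itgae, Itgax, Kit, Lhx2, Ms4a2, Ncr1, Pdpn, Siglech, Sprr2a1, Tlr11, Wfdc21 and Xcr1. A few genes named by the rule are not reported here. Flg, Krt85, Lilrb4b, Trac, Trbc2 and Trdc were not matched and are not analysed here.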

Additional observations from a re-analysis of the deposited data

Results flagged for a closer look

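In the 6 IMQ libraries, 58 of the 248 genes named and tested had 1 library whose gap to the nearest other library passed Dixon's 95% critical value. Chance flags about 1 in 20 groups when the values follow a normal distribution. The comparison used CPM without a log, and genes can move together within a library, so the 58 cannot be set against that rate. The 3 water libraries were too few for this comparison. IMQ replicate 1 was the highest for 29 of them, and its CPM were, by gene, Abca12 (839), Alox12b (425), Alox8 (547), Cldn1 (187), Cstdc5 (8095), Defb1 (220.5), Flg2 (123), Hrnr (2541), Il17a (2.37), Il17c (11), Il18 (51.1), Il1a (111), Il1f5 (923), Il1rl2 (29.1), Klk6 (1566), Krt1 (22961), Krt10 (13776), Lce1c (165), Lce1m (17.6), Nfkbia (267), Pla2g4e (840.2), Ptges (437), Serpinb7 (25.0), Spink5 (1509.8), Sprr2a1 (2481), Sprr2d (2119.6), Tgm1 (731), Uox (545) and Zc3h12a (379). The same library was the lowest for 3, with CPM of Cd79b (1.02), Csf1r (87.7) and Xcr1 (0.407). 

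IMQ replicate 5 was the highest for 20 genes, with CPM of Camp (0.841), Ccl3 (24), Cd14 (70.8), Clec4d (31.3), Clec4e (14.3), Cxcl13 (110.4), Cxcl2 (103), Cxcl3 (35.2), Cxcl5 (9.95), Hdc (56.1), Il1b (128), Lcn2 (259), Mmp13 (77.8), Nlrp3 (20.3), Osm (10.2), Plaur (34.8), Ptgs2 (47.4), Slfn4 (41.4), Stfa2l1 (24.2) and Trem1 (16.7). IMQ replicate 4 was the highest for 5 genes, with CPM of Cers4 (125), Fa2h (161), Far2 (106), Nrg4 (4.62) and Scd1 (1399). Of these, Far2, Fa2h, Cers4 and Scd1 are lipid enzymes. IMQ replicate 2 was the highest for 1 gene, at CPM of Flt3 (2.91).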

How the results depend on the processing

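Each result was recomputed under 18 alternatives. The 5061 changed genes became 2902 to 5010 when 1 library was left out, with 1332 to 2626 higher and 1570 to 2599 lower, and the low ends were all without water replicate 3. Library totals alone as scaling gave 1582 higher and 3434 lower genes, a split of 31.5% to 68.5% against 47.0% to 53.0%, upper-quartile factors gave 2029 higher and 3063 lower, and IMQ replicates 1 to 3 alone gave 1781 lower. DESeq2 called 5458 genes and limma-voom 4371. A fit of only the 9 libraries compared, without the antibody-treated libraries, called 3813, with 1908 higher and 1905 lower. In that fit 9 of the called genes named in the text lost their call. Of the 214 called genes named in the text, 173 kept their call under every alternative, 41 lost it under at least 1 and none reversed. Without water replicate 3, 25 of them lost it. Of the 34 named genes that did not pass, 15 passed under at least 1 alternative. Those that changed sign were Ccl20 (-0.066 with library totals, -0.30 with limma-voom, -0.50 with IMQ replicates 4 to 6 alone and -0.29 to 0.25 with 1 library left out), Cxcl10 (-1.24 to 0.25 with 1 library left out), Il1f5 (0.12 with IMQ replicates 1 to 3 alone and -0.41 to 0.28 with 1 left out), Mki67 (-0.41 to 0.037) and Rsad2 (-0.27 to 0.049), the last 2 also with 1 left out. The sign changed without water replicate 1 for Ccl20, Mki67 and Rsad2, without IMQ replicate 1 for Ccl20, without water replicate 2 for Il1f5 and without water replicate 3 for Cxcl10. The cause was not tested. The median of the respiratory chain list became -0.04 with library totals, and that of the clock list -0.08 with library totals and 0.00 with upper-quartile factors. No paired analysis was possible because the labels give no replicate number that is shared between the groups. With 3 water libraries, small changes can be missed, and genes near 1 CPM rest on few counts.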

Other observations

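Further marker lists gave smaller changes. Of 8 endothelial markers 4 rose and none fell, among them Emcn (0.85 ± 0.17, adjusted p = 0.000947) and Cdh5, the cadherin of vessel walls (0.57 ± 0.20, adjusted p = 0.0288, lost without IMQ replicate 3 or water replicate 2 or 3). Pdpn, podoplanin, was the 1 of 6 lymphatic markers that rose, from 37.2, 40.1 and 37.4 CPM to between 42.5 and 103 CPM (median 79.8, log2 change 1.01 ± 0.31, adjusted p = 0.0172, lost without water replicate 1 or 3). None of 8 pericyte and smooth muscle markers, 8 Schwann cell markers or 6 red blood cell genes tested changed. Among 6 Langerhans cell markers 3 fell and 1 rose, the falls including Itgae, described above with T cells. Cd207, langerin, went from 11.6, 19.7 and 26.5 CPM to between 2.40 and 14.7 CPM (median 8.06, log2 change -1.32 ± 0.43, adjusted p = 0.0222, lost without water replicate 2 or 3). Of 5 plasmacytoid dendritic cell markers tested 2 fell and 1 rose. Their summed level was 557 to 803 CPM under water and 721 to 1156 CPM under IMQ. The rise was lost without IMQ replicate 1 or 5 or water replicate 1 or 3, and 1 fall was left without water replicate 1 or 3. Siglech was among the falls, from 3.60, 2.32 and 2.93 CPM to between 0.210 and 1.61 CPM (median 0.926, log2 change -1.61 ± 0.38, adjusted p = 0.00358). Of 5 B cell markers tested 2 rose, Cd79b from 0.708, 0.529 and 0.901 CPM to between 1.02 and 3.92 CPM (median 3.03, log2 change 1.98 ± 0.38, adjusted p = 0.00093) and Cd22 (0.98 ± 0.32, adjusted p = 0.0246, lost without water replicate 1 or 3), while the defining markers Cd79a, Ms4a1 and Pax5 had too few counts to test. Of 8 mast cell markers 1 rose and 2 fell. Hdc, the histamine-forming enzyme of mast cells and neutrophils, was the rise (2.34 ± 0.61, adjusted p = 0.00634). Ms4a2 was among the falls (-1.07 ± 0.25, adjusted p = 0.00304). The counts became, with 1 library left out, 2 endothelial marker rises without water replicate 2, 1 pericyte and smooth muscle marker rise without IMQ replicate 1, 1 pericyte and smooth muscle marker fall without IMQ replicate 3 or water replicate 2, 1 Schwann cell marker fall without IMQ replicate 3, 0 Langerhans cell marker rises without water replicate 3 and 1 Langerhans cell marker fall without water replicate 2.

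Some large changes were not yet described. Slc13a3, a carrier of dicarboxylates, rose from 1.69, 1.26 and 3.15 CPM to between 9.56 and 125 CPM (median 54.0, log2 change 5.0 ± 1.06, adjusted p = 0.00165), and Ak4, an adenylate kinase of mitochondria, by 1.23 ± 0.16. Fcgbp, a mucus protein, fell from 247, 580.4 and 573 CPM to between 13.7 and 44.4 CPM (median 35.1, log2 change -3.86 ± 0.54, adjusted p = 0.0001). The olfactory-type P450 Cyp2g1 fell from 28.1, 169 and 511 CPM to between 6.10 and 26.7 CPM (median 14.1, log2 change -4.01 ± 0.82, adjusted p = 0.00137), as did Cldn3, a claudin of simple epithelia (-4.47 ± 0.83, adjusted p = 0.000747). Nrep, a regulator of fibroblast movement, fell from 69.3, 46.3 and 41.5 CPM to between 13.4 and 23.6 CPM (median 18.1, log2 change -1.53 ± 0.18, adjusted p = 4.46e-05). No IMQ library overlapped a water library for these 6 genes. A single left-out library moved some values by over 1.5 times: Cyp2g1 (-2.74 without water replicate 3) and Cldn3 (-3.49 without water replicate 3).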
